A study of Mus musculus with 13 samples.

Results

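The 10 genes described here code for proteins of the tight junction: the claudins Cldn1, Cldn2, Cldn3, Cldn4, Cldn7, Cldn8, Cldn15 and Cldn23, the membrane protein occludin (Ocln) and the scaffold protein ZO-1 (Tjp1). They were taken by symbol from the 32285 genes counted in each library, and all 10 are in the files. Their levels were read in the epithelial cells of droplet-based single-cell RNA-seq libraries from 10 colon tumors and from adjacent mucosa of the same 3 mice, with 1 mucosa library per mouse. All animals were C57BL/6J mice of genotype ApcMin/+ and p16cis/cis on the supplemented diet. The germline Apc mutation and the p16cis allele were thus carried by the mucosa as well as by the tumors. Methylation of the p16 promoter was not measured in these libraries, and there was no wild-type animal or control diet. Mouse A was 24 weeks old and gave 4 tumors, mouse B was 23 weeks old and gave 2, and mouse C was 20 weeks old and gave 4. Mucosa was dissociated with EDTA and TrypLE and tumors with a tumor dissociation kit, so tissue and dissociation cannot be told apart in any difference given below.

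Tight junctions seal the space between neighboring epithelial cells and decide which ions and how much water pass between them. Claudins form the strands of the junction. Some, such as claudin-2 and claudin-15, make pores for small cations, while others, such as claudin-1, claudin-3, claudin-4 and claudin-8, are known mainly as sealing claudins. Occludin is a further membrane protein of the strands, and ZO-1 ties them to the actin cytoskeleton below. In the colon the set of claudins differs between the crypt base and the surface.

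In the mm10 genome (GENCODE vM21), Cldn4 lies at chr5:134945119-134946934 on the minus strand and Cldn3 close to it at chr5:134986214-134987472 on the plus strand, where it overlaps the antisense gene Wbscr25. Cldn15 is on the same chromosome at chr5:136966616-136975858 (plus strand), 382 bases from Fis1. Cldn7 is at chr11:69964779-69967885 (plus strand), 337 bases from Elp5. Cldn2 is at chrX:139800828-139811386 (plus strand), and Cldn1 and Cldn8 are at chr16:26356642-26371841 and chr16:88560828-88563183 (both minus strand). Cldn23 is at chr8:35824712-35826559, Tjp1 at chr7:65296165-65527781 and Ocln at chr13:100496507-100552718, all on the minus strand. Counts cover whole genes, so splice forms were not told apart.

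After filtering, 108495 cells remained, of which 14861 were epithelial cells of the mucosa and 17183 were epithelial cells of tumors. Transcripts were counted as unique molecular identifiers (UMIs, 1 per captured molecule), and levels are given as CPM, the UMIs of a gene in the summed cells scaled to the same total in every library. The summed epithelial cells of a library held 60399013 to 81187653 UMIs in mucosa and 22139257 to 39788836 UMIs in tumors. Fewer positive cells and less RNA per cell cannot be told apart in a sum. All 13 libraries held transcripts of 4 Y-linked genes at a summed 104 to 130 CPM and Xist at no more than 0.124 CPM, although the labels call 7 of them female, and the sex label was not used. Mucosa replicate 1 stood apart in its clusters, with 59.6% of its epithelial cells in clusters that were almost wholly of mucosa, against 80.3% and 80.0% in the other mucosa libraries. Of the 107055 distinct cell barcodes, 1427 (1.33%) occurred in more than 1 library. The epithelial sums of tumors also held more RNA of genes listed as markers of other cells. The 7 neutrophil genes summed to 339 to 1164 CPM in tumors and 21.5 to 116 CPM in mucosa. The 7 macrophage genes came to 25.4 to 129 CPM in tumors and 3.71 to 8.49 CPM in mucosa. For the 8 lymphocyte genes this was 74.5 to 621 CPM and 6.99 to 54.3 CPM. For the 6 endothelial genes it was 103 to 257 CPM and 21.0 to 31.6 CPM. Ly6g of the neutrophil list was also among the leading genes of an epithelial cluster, the one led by Tgm3. Which cells these transcripts came from was not tested. The 9 epithelial markers summed to 13029 to 19841 CPM in mucosa and 9641 to 18553 CPM in tumors, so the epithelial label held in both. The 6 fibroblast genes summed to 0.382 to 12.2 CPM in tumors and 0.0497 to 0.242 CPM in mucosa. Outside the epithelium, the small cluster led by Igfbp7 and Col3a1 held Tjp1 at 103 CPM over its pooled tumor cells. The part of RNA from other cells in the results was not tested. The level in the immune cells of the tumors is given below for Cldn4, Cldn15 and Cldn1.

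**Figure D1:**
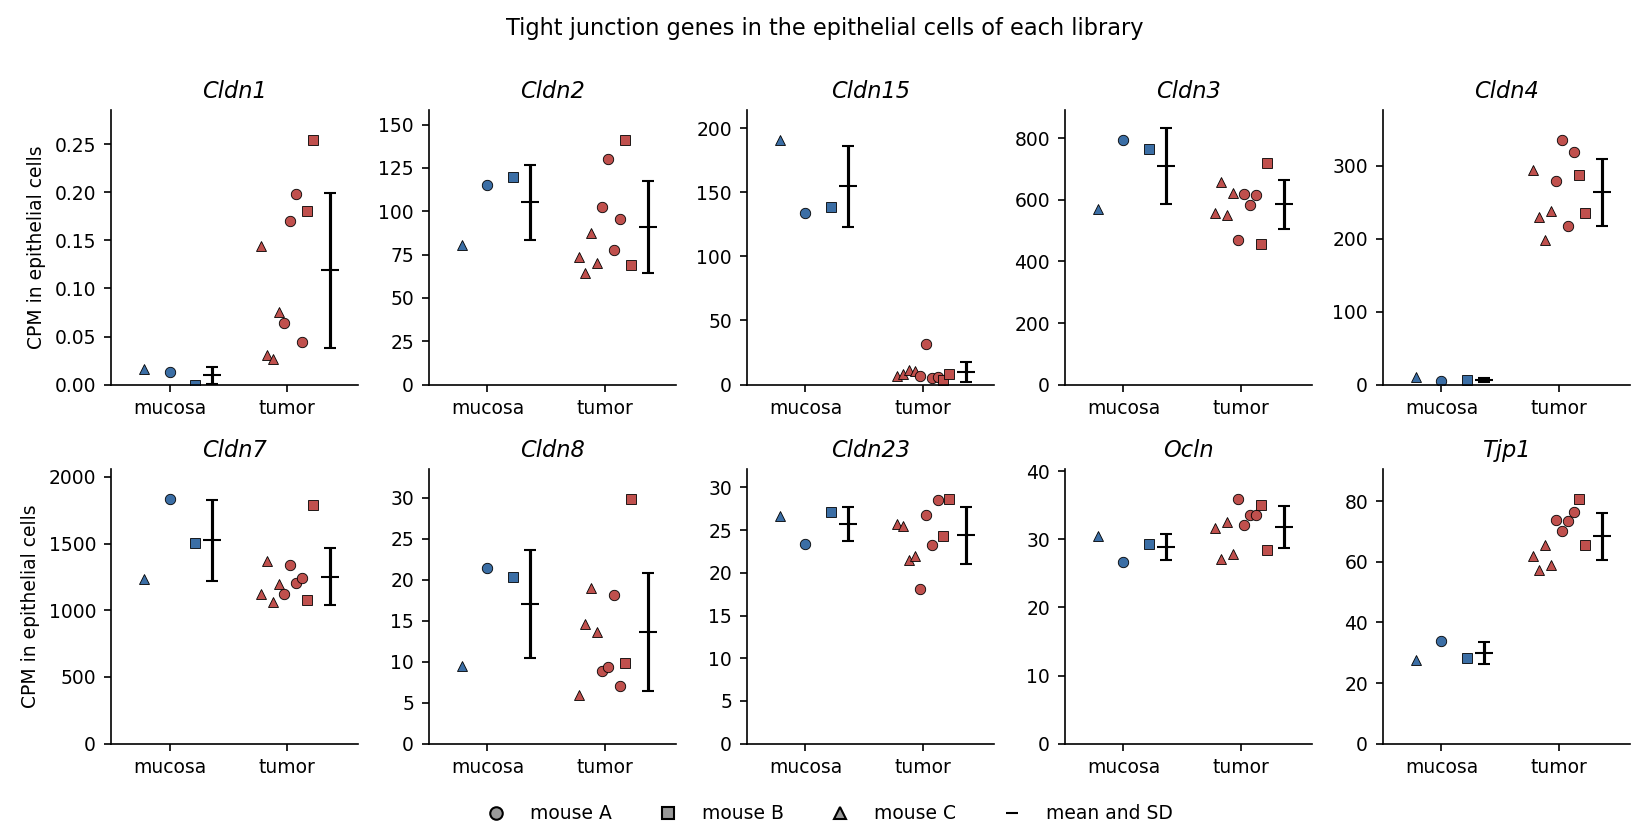
Level of each gene in the summed epithelial cells of each library, in CPM on a linear axis that starts at 0. Blue symbols are mucosa (n = 3), red symbols are tumors (n = 10), the shape gives the mouse, and the bars give the mean and SD. Cldn4 and Tjp1 were higher and Cldn15 was lower in every tumor than in every mucosa library, while the other genes overlapped, apart from Cldn1, which was under the count filter and reached at most 0.255 CPM.

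Tumors were first compared with mucosa over all epithelial cells, with edgeR's quasi-likelihood test on the sums and Benjamini-Hochberg adjustment over 15496 genes. Among the 9 members that could be tested, 2 were higher in tumors at an adjusted p under 0.05 (Cldn4 and Tjp1), beside 33.7% of all genes tested. Lower in tumors were 4 members (Cldn15, Cldn3, Cldn7 and Cldn23), beside 30.1% of all genes. With the tumors of each mouse summed to 1 sample, 3 against 3, 2 members were higher and 3 were lower, beside 4854 genes higher and 4161 lower of 16125, and the call of Cldn7 was lost (adjusted p = 0.073). Members thus moved in both directions, as did genes at large. The median log2 fold change of the 9 members was -0.47, against 0.04 over all genes.

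The largest changes among the members were those of Cldn4 and Cldn15, and they went in opposite directions. Cldn4, a sealing claudin of many epithelia, stood at 9.87, 4.42 and 6.38 CPM in mucosa replicates 1, 2 and 3. In tumors its lowest level was 198, its median 258 and its highest 335 CPM. The groups did not overlap, and the lowest tumor was far above the highest mucosa library. The fitted change was 32.0-fold higher (log2 fold change 5.00, SE 0.28, edgeR adjusted p = 3.56e-08, n = 10 and 3). The immune cells of the same tumors held Cldn4 at 0.716 to 4.17 CPM.

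Cldn15, which makes a cation pore in the intestine, showed the reverse. It stood at 191, 134 and 138 CPM in mucosa replicates 1, 2 and 3. In tumors its lowest level was 3.79, its median 7.54 and its highest 32.0 CPM, in tumor replicate 6. The groups did not overlap here either. The fitted change was 18.7-fold lower in tumors (log2 fold change -4.22, SE 0.42, edgeR adjusted p = 2.92e-06), and without tumor replicate 6 it was -4.61 on the log2 scale. That tumor also had the largest share of epithelial cells in clusters almost wholly of mucosa, 4.33% against 0.187% to 1.27% in the other tumors. The immune cells of the tumors held Cldn15 at 1.04 to 1.75 CPM.

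Cldn2 is the other pore-forming claudin. Its level was 80.4, 115 and 120 CPM in mucosa replicates 1, 2 and 3, and 64.3 to 141 CPM in tumors, with a median of 82.6 CPM. The groups overlapped, and the fitted log2 fold change of -0.47 (SE 0.21) did not pass the test (edgeR adjusted p = 0.070). It did pass in 6 of 23 alternatives: with the 10% mitochondrial limit (adjusted p = 0.0091), with doublets kept (0.044), without goblet-like cells (0.046), and without mucosa replicate 1 (0.035), tumor replicate 6 (0.032) or tumor replicate 9 (0.019). As a description within each library, the UMIs of Cldn2 per UMI of Cldn15 came to 0.421 to 0.865 in mucosa and 4.07 to 37.3 in tumors. The neighboring pair of Cldn3 and Cldn4 on chromosome 5 also parted: Cldn4 UMIs per Cldn3 UMI were 0.00555 to 0.0173 in mucosa and 0.327 to 0.628 in tumors.

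Tjp1, the gene of ZO-1, was at 27.5, 34.0 and 28.4 CPM in mucosa replicates 1, 2 and 3. Its lowest level in tumors was 57.2, its median 67.9 and its highest 80.8 CPM. Every tumor was above every mucosa library, with a fitted change of 1.91-fold (log2 fold change 0.93, SE 0.11, edgeR adjusted p = 8.58e-06). Ocln, in contrast, was at 26.7 to 30.4 CPM in mucosa and 27.0 to 35.96 CPM in tumors. Its groups overlapped and its log2 fold change of -0.12 (SE 0.08, edgeR adjusted p = 0.24) did not pass the test and turned to 0.14 with library totals only.

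Cldn3 and Cldn7, claudins found along most of the intestinal epithelium, were somewhat lower. Cldn3 ranged from 569 to 796 CPM in mucosa and from 458 to 719 CPM in tumors (log2 fold change -0.53, SE 0.15, edgeR adjusted p = 0.0079). Cldn7 ranged from 1233 to 1836 CPM in mucosa and from 1063 to 1790 CPM in tumors (log2 fold change -0.53, SE 0.17, edgeR adjusted p = 0.016). Cldn23, a claudin of surface enterocytes, was at 23.4 to 27.1 CPM in mucosa and 18.1 to 28.7 CPM in tumors (log2 fold change -0.33, SE 0.13, edgeR adjusted p = 0.034). The groups overlapped for all 3 genes. All 3 calls rested on the scaling between libraries: with library totals only, the log2 fold changes were -0.28 for Cldn3, -0.28 for Cldn7 and -0.08 for Cldn23, with adjusted p of 0.097, 0.13 and 0.60. That scaling moved the median log2 fold change of all genes from 0.04 to 0.29. Single libraries also decided these calls. Without mucosa replicate 2, Cldn3 and Cldn7 had adjusted p of 0.051 and 0.12. Cldn23 was not called without mucosa replicate 1 (0.10), mucosa replicate 3 (0.12) or tumor replicate 3, 4 or 7 (0.051 to 0.053), or with the 10% mitochondrial limit (0.54). Directions also differed between the classes of cells compared below. In absorptive-like cells Cldn3 was 1.01-fold lower, Cldn7 1.09-fold higher and Cldn23 1.32-fold higher in tumors, none of them called. In cycling epithelial-like cells all 3 were lower, with Cldn3 and Cldn7 called. In goblet-like cells Cldn23 was called 2.42-fold higher, and Cldn3 and Cldn7 were not called.

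Cldn8, a sealing claudin of the distal colon, was at 9.44, 21.4 and 20.3 CPM in mucosa replicates 1, 2 and 3 and at 5.97 to 29.9 CPM in tumors. No difference passed the test (log2 fold change -0.56, SE 0.42, edgeR adjusted p = 0.26). Cldn1, a sealing claudin, was barely detected in epithelial cells and was under the count filter. With no filter it was called higher in tumors (log2 fold change 3.01, adjusted p = 0.0085). All mucosa epithelium held 2 UMIs of it and all tumor epithelium held 32, which is 12.1 times as many per UMI, with an exact 95% interval of 3.097 to 105 that covers counting error only. Most Cldn1 UMIs of the tumors lay outside the epithelium, 235 in the immune cluster led by Ccl22 and 189 in the one led by Ccl3. In the tumors' immune cells it reached 1.11 to 3.25 CPM, and in the cluster led by Ccl3, a macrophage and neutrophil chemokine, it was at 54.3 ± 19.0 CPM (SD, n = 10 tumors). A small cluster led by Igfbp7 and Col3a1 held it at 32.8 ± 48.9 CPM (SD, n = 7 tumors), with a range of 0 to 135 CPM, and at 18.8 CPM over the pooled tumor cells.

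The promoters of Cldn4 and Cldn15, whose levels moved most and in opposite directions, are printed from RefSeq (build GRCm38.p6, 300 bases around the annotated start, in the direction of the gene). The RefSeq start of Cldn15 lies inside the GENCODE gene given above, so its window does not hold the first base of that gene. Capitals mark matches to TGANTCA, the letters bound by AP-1, the dimer of Fos and Jun proteins. The motif reads the same on both strands. The Cldn4 window lies on the minus strand at chr5:134946885-134947184 and the Cldn15 window on the plus strand at chr5:136967619-136967918.
Cldn4: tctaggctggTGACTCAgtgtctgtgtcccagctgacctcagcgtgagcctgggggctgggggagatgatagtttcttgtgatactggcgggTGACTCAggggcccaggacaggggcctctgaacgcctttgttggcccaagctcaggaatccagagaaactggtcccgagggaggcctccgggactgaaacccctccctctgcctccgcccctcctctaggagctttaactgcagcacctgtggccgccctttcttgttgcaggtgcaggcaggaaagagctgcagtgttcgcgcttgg
Cldn15: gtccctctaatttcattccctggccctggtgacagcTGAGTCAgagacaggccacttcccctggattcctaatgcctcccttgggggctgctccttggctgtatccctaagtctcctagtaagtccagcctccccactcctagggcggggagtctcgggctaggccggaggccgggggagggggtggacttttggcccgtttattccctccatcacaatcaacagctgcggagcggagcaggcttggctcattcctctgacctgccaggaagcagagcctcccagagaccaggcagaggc
The Cldn4 window held 2 matches and the Cldn15 window 1, while 7.81% of the 32851 mouse promoters of this length held at least 1 and 0.460% at least 2. The other windows found for the members held none, and no window was found for Cldn8 or Cldn23. CTTTGA or CTTTGT on either strand, the letters bound by TCF/LEF factors of the Wnt pathway, occurred 1 time each in the Cldn4 and Cldn1 windows and in 31.2% of all promoters. Also looked up were the letters named for GRHL (AACCNGTT), CDX (TTTATG or TTTATT), SP/KLF (GGGCGG) and E-box (CACCTG). The Cldn4 window held 2 SP/KLF and 2 E-box matches, where 19.0% and 2.88% of all promoters held at least 2. The Cldn1 and Tjp1 windows also held 2 SP/KLF matches. One of the windows of Cldn7 and one of those of Ocln also held 2 E-box matches. The Cldn15 window held 1 SP/KLF and 1 CDX match, where 35.7% and 27.6% of all promoters held at least 1. All these matches are letters in a window and say nothing of binding.

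The comparison was repeated within classes of cells named from marker genes, each ending in -like. In the absorptive-like cells, 2 of 8 members tested were higher (18% of 8944 genes) and 1 was lower (16.7% of genes). Cldn4 was at 48.5, 10.2 and 14.7 CPM in mucosa replicates 1, 2 and 3 and at 104 to 652 CPM in tumors, with a median of 390 CPM (log2 fold change 4.13, SE 0.59, edgeR adjusted p = 1.08e-04). Tjp1 rose from 52.7 ± 5.28 CPM (SD, n = 3) to 109 ± 18.4 CPM (SD, n = 10), with a log2 fold change of 1.07 (edgeR adjusted p = 2.20e-04). Cldn15 fell from 42.0 ± 28.3 CPM to 2.02 ± 2.87 CPM (log2 fold change -4.53, edgeR adjusted p = 2.39e-05). The groups overlapped for none of these 3 genes. With 1 library left out at a time, the log2 fold change ran from 3.78 to 4.94 for Cldn4 and from -5.32 to -3.96 for Cldn15. Different clusters held most of this class in the tissues. In mucosa 2225 cells were in the Slc51a-led, 636 in the Aqp8-led and 499 in the Tgm3-led cluster, and in tumors 1113 were in the Tgm3-led and 36 in the Aqp8-led cluster. Within the Tgm3-led cluster alone the log2 fold change of Tjp1 was 0.46 and was not called by edgeR (adjusted p = 0.17), and whether the 2 fold changes differ was not tested.

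In the cycling epithelial-like cells, 2 of 9 members were higher (27.7% of 11269 genes) and 5 were lower (25.4% of genes). Cldn4 was at 0.360 to 1.35 CPM in mucosa and 55.3 to 132 CPM in tumors (log2 fold change 6.68, SE 0.39, edgeR adjusted p = 1.08e-08). Tjp1 went from 23.8 ± 2.70 to 60.3 ± 11.97 CPM (log2 fold change 1.23, edgeR adjusted p = 1.32e-05). Cldn15 went from 173 ± 20.2 to 10.4 ± 13.5 CPM (log2 fold change -4.19, edgeR adjusted p = 4.99e-05). Leaving out 1 library at a time moved the log2 fold change between 6.42 and 7.43 for Cldn4 and between -4.85 and -4.06 for Cldn15. Ocln fell here, from 26.4 ± 1.27 to 17.9 ± 3.62 CPM (log2 fold change -0.64, edgeR adjusted p = 0.0015), as did Cldn3 (-0.68), Cldn8 (-1.07) and Cldn7 (-0.43, not called with library totals only, adjusted p = 0.065). Most of these cells lay in the Hist1h1b-led and Wfdc12-led clusters in mucosa and in the Hist1h3c-led cluster in tumors. Without mucosa replicate 2 the calls of Cldn7 (adjusted p = 0.082) and Cldn8 (0.11) were lost, as they were without mucosa replicate 3 (0.058 and 0.13), and that of Cldn8 was lost without tumor replicate 5 (0.052) or 9 (0.051) and with the 10% mitochondrial limit (0.12). Cldn2 was called lower with that limit (0.020) and without tumor replicate 6 (0.024) or 9 (0.031).

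The goblet-like cells, mucus-secreting cells of 1 cluster (led by Zg16) in both tissues, were compared next. They could be summed in 7 tumors with 21 to 83 cells each, so the depth was low. Of 8 members tested, 2 were higher (5.09% of 5911 genes) and 0 were lower by edgeR (2.76% of genes; also 0 at an unadjusted p under 0.05 and 0 by DESeq2). Cldn4 was at 33.5, 13.4 and 23.1 CPM in mucosa replicates 1, 2 and 3 and at 22.004 to 217 CPM in tumors (log2 fold change 2.75, SE 0.67, edgeR adjusted p = 0.042). Cldn23 was at 14.7 to 23.1 CPM in mucosa and at 22.004 to 59.2 CPM in tumors (log2 fold change 1.27, SE 0.29, edgeR adjusted p = 0.012). The groups overlapped for both. Neither call held without mucosa replicate 2 (adjusted p = 0.14 for Cldn4 and 0.066 for Cldn23) or without mucosa replicate 3 (0.15 and 0.071), or with the 10% mitochondrial limit (0.28 and 0.094). The call of Cldn4 was also lost without mucosa replicate 1 (0.077), without any of tumor replicates 1, 2, 3, 5, 6 and 7 (0.053 to 0.079) and with the mouse as a replicate block (0.17). Cldn15 was at 66.8 ± 26.8 CPM in mucosa and 34.0 ± 18.0 CPM in tumors, with an adjusted p of 0.22. It was called lower in 1 of 17 alternatives, the fit with no filter on low counts (edgeR adjusted p = 0.012).

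**Figure D2:**
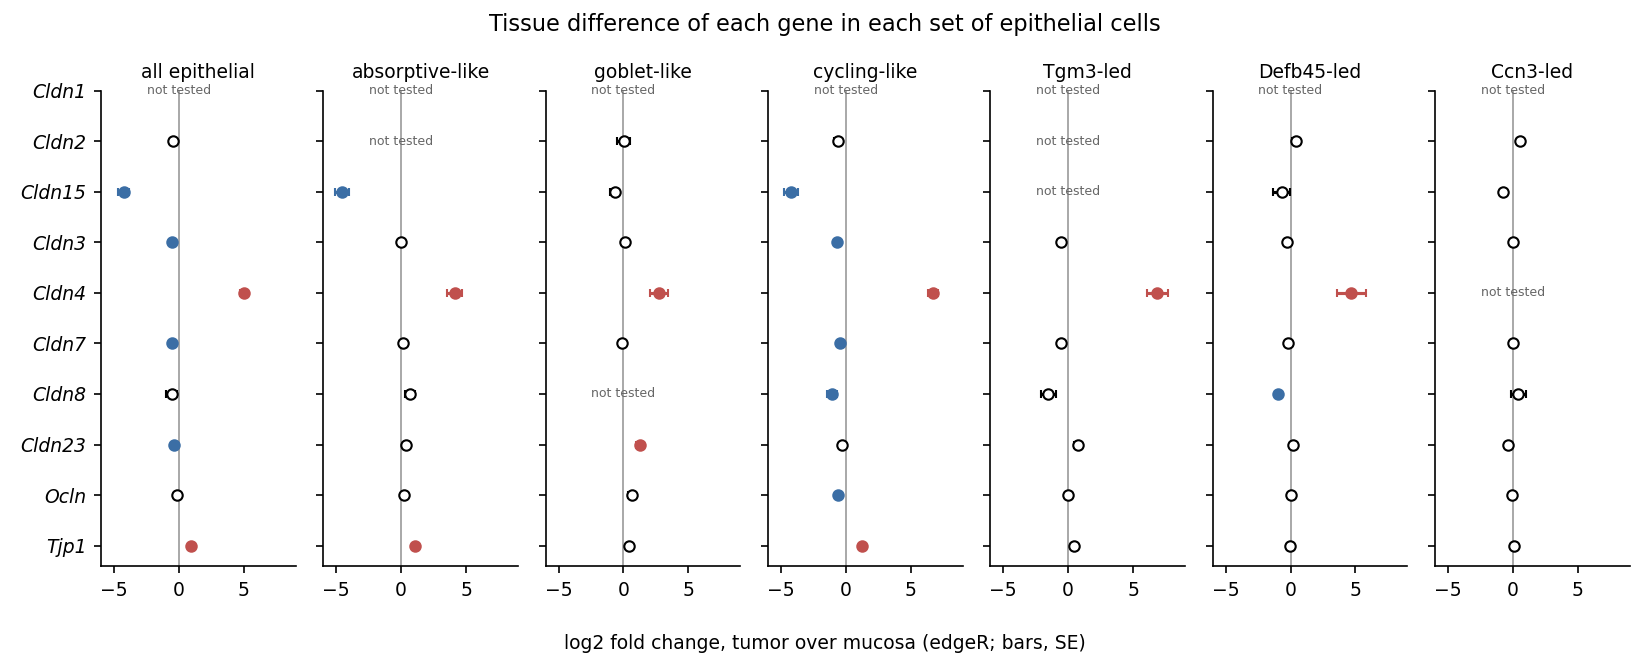
Fitted log2 fold change of each gene, tumor over mucosa, in 7 sets of epithelial cells, with bars for the SE (edgeR). Filled red points were higher and filled blue points lower in tumors at an adjusted p under 0.05, open points were not called, and "not tested" marks genes under the count filter. Cldn4 was called higher in all 6 sets in which it was tested, by 2.75 to 6.86. Cldn15 was called lower, by more than 4 on the log2 scale, in the sums of all epithelial, absorptive-like and cycling-like cells. In goblet-like cells and in the Defb45-led and Ccn3-led clusters Cldn15 was not called, at 1.597-fold to 1.715-fold lower in tumors. In the Tgm3-led cluster it was not tested.

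The tissue difference of Cldn15 was then compared directly between absorptive-like and goblet-like cells of the same libraries. The log2 change in absorptive-like cells was lower by 3.30 (term -3.30, SE 0.42, edgeR adjusted p = 1.29e-05). For Cldn23 the term was -0.88 (SE 0.27, edgeR adjusted p = 0.043), which was not called without mucosa replicate 2 (adjusted p = 0.14), mucosa replicate 3 (0.14) or any of tumor replicates 1, 2, 3, 6 and 7 (0.054 to 0.11), with no filter (0.069) or with the 10% mitochondrial limit (0.22). For Cldn4 it was 1.53 (SE 0.80, edgeR adjusted p = 0.32), and it was called with no filter (1.36e-05) and without tumor replicate 7 (0.019). For Cldn8 it was 1.007 (SE 0.46, edgeR adjusted p = 0.21), and it was called without mucosa replicate 1 (0.039) or tumor replicate 5 (0.043). Cldn8 was 1.59-fold higher in tumors in the absorptive-like sums but 2.89-fold lower within the Tgm3-led cluster alone, neither called by edgeR. Of 9 members tested, 2 were called with a negative term (3.15% of 9244 genes) and 0 with a positive one by edgeR (5.57% of genes; 2 at an unadjusted p under 0.05). DESeq2 was not run on this term.

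Since the classes were made up of different clusters, tumors and mucosa were also compared within 3 clusters that held cells of both. In the Tgm3-led absorptive-like cluster (10 tumors and mucosa replicates 2 and 3), Cldn4 was at 4.23 CPM in mucosa replicate 2 and 1.92 CPM in mucosa replicate 3, 14 UMIs in all, and at 107 to 652 CPM in tumors. The log2 fold change was 6.86 (SE 0.82, edgeR adjusted p = 4.02e-04). It was the 1 member called higher of 7 tested (7.29% of 8922 genes), and 0 were lower by edgeR (8.64% of genes; 3 at an unadjusted p under 0.05 and 0 by DESeq2). Tjp1 had a log2 fold change of 0.46 (SE 0.22, adjusted p = 0.17). With the mouse as a replicate block Cldn23 was also higher (log2 fold change 0.90, adjusted p = 0.034), and with library totals only Cldn23 (adjusted p = 0.044) and Tjp1 (0.039) were. Cldn15 was under the count filter there, with 26 UMIs in mucosa and 14 in tumors, a ratio per UMI of 0.155 with an exact 95% interval of 0.0747 to 0.308. Without mucosa replicate 2 or 3 the fit has 1 mucosa library, whose spread is taken from the tumors, and 104 or 125 genes were higher and 118 or 176 lower, in place of 650 and 771. The log2 fold change of Cldn4 was then 7.61 or 6.37 (adjusted p = 0.017 or 0.014), with no measure of the spread in mucosa. Without tumor replicate 6, Cldn7 (log2 fold change -0.62, adjusted p = 0.040) and Cldn8 (-1.39, 0.0084) were called lower. With no filter on low counts Cldn15 was lower too (-2.70, adjusted p = 0.0071), as it was in the 6 fits without 1 tumor in which it passed the filter (-2.60 to -3.02).

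In the Defb45-led cluster, which took no class name, Cldn4 was at 0 and 0.917 CPM in the 2 mucosa libraries and at 4.52 to 26.4 CPM in tumors. The mucosa value rests on 2 UMIs, and the ratio per UMI was 32.1 with an exact 95% interval of 8.83 to 266. Cldn4 was the 1 member called higher of 9 (5.45% of 10820 genes; log2 fold change 4.68, SE 1.09, edgeR adjusted p = 0.018). Cldn8 was the 1 called lower (6.37% of genes), from 112 ± 6.21 CPM to 61.6 ± 17.0 CPM (log2 fold change -0.93, SE 0.25, edgeR adjusted p = 0.028). Without mucosa replicate 2 or 3 this fit has 1 mucosa library, whose spread is then taken from the tumors, and 0 members were called, with 39 or 54 genes higher and 73 or 95 lower in place of 590 and 689. The log2 fold change of Cldn4 was then 8.40, against a library at 0 UMIs and so no measure of size, or 3.63. Tjp1 in this cluster had a log2 fold change of -0.01 (SE 0.19, edgeR adjusted p = 0.99). The log2 fold change of Cldn8 stayed between -1.004 and -0.82 in all 19 alternatives, and its call was also lost with the 10% mitochondrial limit (adjusted p = 0.052). Cldn15 was at 27.5 and 42.0 CPM in these mucosa libraries and at 9.82 to 74.5 CPM in tumors (log2 fold change -0.68, SE 0.67, edgeR adjusted p = 0.54). Without tumor replicate 6, the highest of these tumors, it was -1.15 with an adjusted p of 0.024.

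The Ccn3-led cluster, also unnamed, held cells of all 3 mucosa libraries and of 7 tumors. Of the class marker lists, the goblet list scored highest there. Its mean log2 fold over the other epithelial clusters was 0.95, where a name needed at least 1. Spink4 of that list was among the leading genes. The cells of this cluster were not counted as goblet-like. By edgeR 0 of 8 members were higher (1.13% of 7352 genes; 0 at an unadjusted p under 0.05 and 0 by DESeq2) and 0 were lower (0.286% of genes; 1 at an unadjusted p under 0.05 and 1 by DESeq2, Cldn15 both times). Cldn15 was at 149 to 231 CPM in mucosa and 82.1 to 139 CPM in tumors, so the groups did not overlap. Its log2 fold change was -0.78 (SE 0.20, edgeR adjusted p = 0.056), and with the mouse as a replicate block it was -0.84 with an adjusted p of 0.015. It also passed without tumor replicate 3 (adjusted p = 0.040), without tumor replicate 6 (0.039), with library totals only (0.033), with no filter (0.0047) and with doublets kept (0.022). Tjp1 had a log2 fold change of 0.08 (SE 0.20, edgeR adjusted p = 0.91). Leaving out a mucosa library gave 35 to 56 genes higher and 6 to 28 lower in place of 83 and 21, with mucosa replicates 1 and 3 moving these counts most. Cldn4 was under the filter, at 0.229 to 1.81 CPM in mucosa and 1.66 to 21.9 CPM in tumors, a ratio per UMI of 13.8 with an exact 95% interval of 7.10 to 28.5. It was tested and called higher with no filter (log2 fold change 3.44, adjusted p = 0.0033) and with doublets kept (2.90, 0.027). Per UMI of the pooled cells, Cldn15 in the tumor cells of this cluster was 0.489 times that of the mucosa cells. The exact 95% interval of 0.445 to 0.537 covers counting error only and not the spread between libraries. Mucosa replicate 1 gave 17470707 UMIs of the mucosa pool behind both ratios, and mucosa replicates 2 and 3 gave 3505345 and 4414783. Both ratios thus lean on mucosa replicate 1. The change of Cldn15 fitted over libraries was 1.71-fold lower in tumors. In the other tumor clusters the mean of Cldn15 was at most 43.0 CPM.

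**Figure D3:**
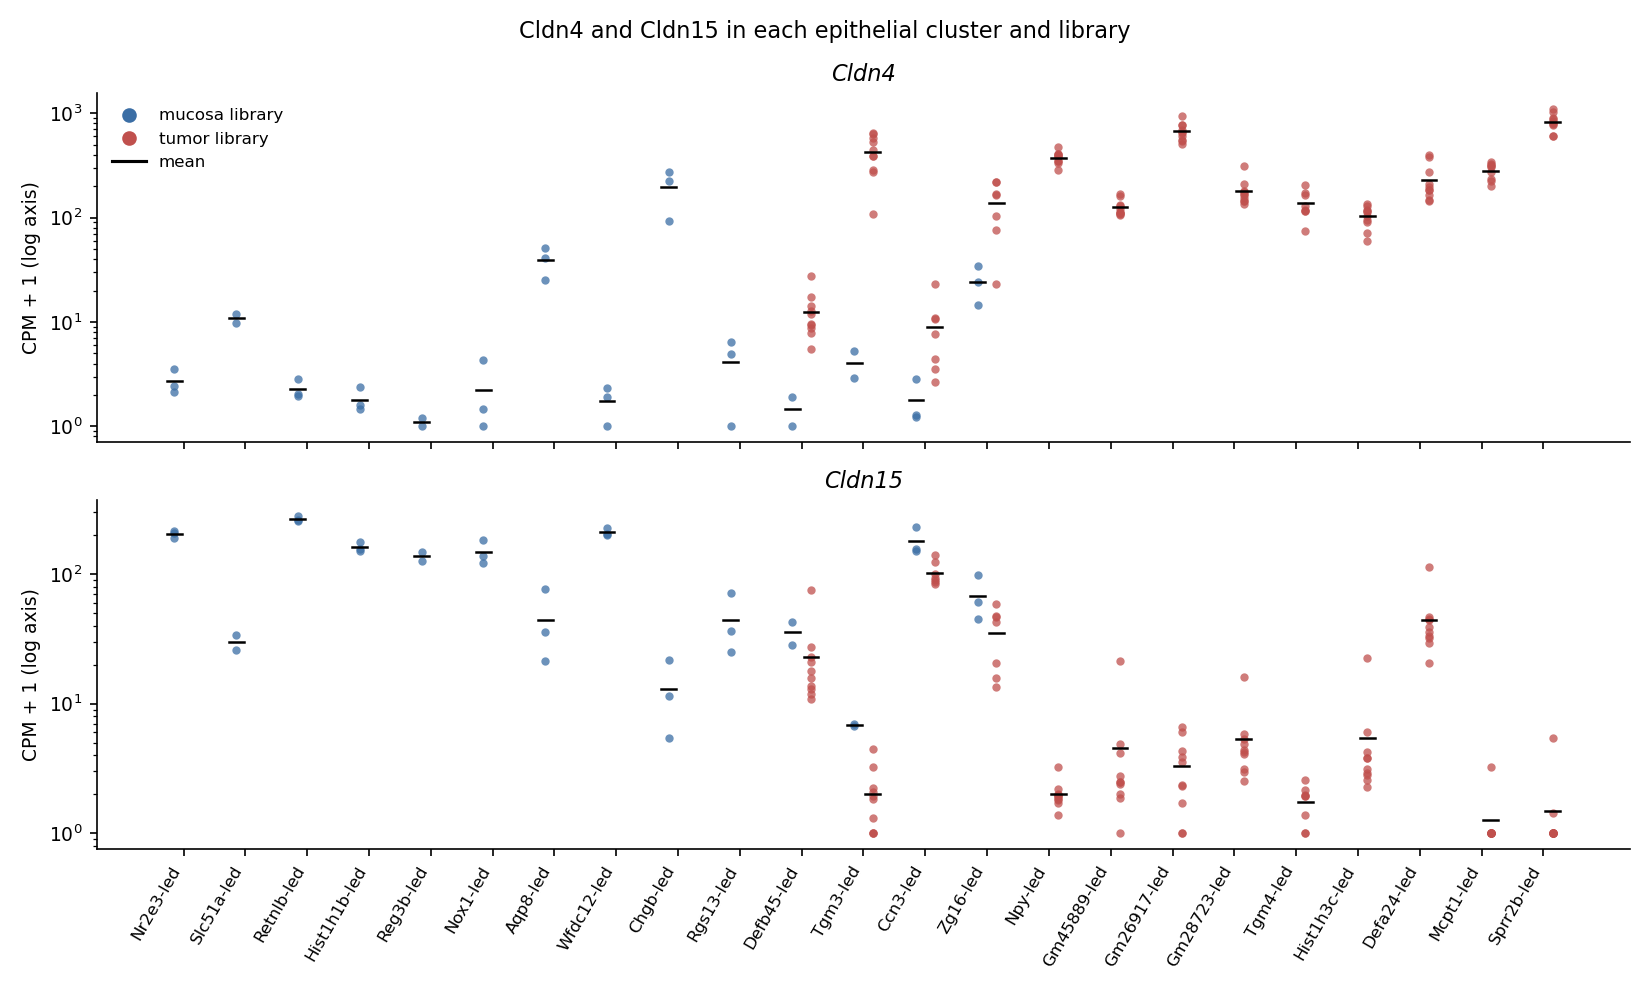
Cldn4 (top) and Cldn15 (bottom) in each epithelial cluster, as CPM + 1 on a log axis, for tissues with at least 2 libraries of at least 20 cells in the cluster. Points are libraries and black bars their means, with mucosa in blue and tumors in red. Clusters of the mucosa are on the left, those of both tissues in the middle and those of the tumors on the right, and Cldn15 in the tumor cells of the Ccn3-led cluster lay between 82.1 and 139 CPM.

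Across clusters, given here as a description since clusters were not tested against each other, Cldn15 was at 265 ± 12.9 CPM (SD, n = 3) in the Retnlb-led cluster of the mucosa, 203 ± 14.1 CPM in the Nr2e3-led cluster and 160 ± 14.3 CPM in the Hist1h1b-led cycling-like cluster, but at 5.84 ± 0.123 CPM (n = 2) in the Tgm3-led cluster. In tumors the Npy-led tumor epithelial-like cluster held 0.993 ± 0.480 CPM, the Gm28723-led stem-like cluster 4.35 ± 3.91 CPM and the Sprr2b-led cluster 0.485 ± 1.39 CPM (n = 10 each). The Npy-led and Sprr2b-led means lay under the 1.04 to 1.75 CPM of Cldn15 in the tumors' immune cells. Among the clusters used, the exceptions in tumor cells, beside the Ccn3-led, Zg16-led and Defb45-led clusters, were the Paneth-like cells led by Defa24, at 43.0 ± 25.9 CPM. Paneth cells secrete antimicrobial peptides and are normally absent from the mouse colon.

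Cldn4 was low in nearly all mucosa clusters, from 0.104 CPM in the Reg3b-led to 38.3 ± 13.2 CPM in the Aqp8-led absorptive-like cluster. The exception was the enteroendocrine-like cluster led by Chgb, hormone-secreting cells, where it was at 272, 91.4 and 221 CPM in mucosa replicates 1, 2 and 3. The tumor clusters ran from 102 ± 24.3 CPM in the Hist1h3c-led cycling-like to 831 ± 157 CPM in the Sprr2b-led cluster, leaving aside the Defb45-led and Ccn3-led cells. The tumor epithelial-like cells were at 376 ± 50.5 CPM.

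Cldn2 was low in the absorptive-like cells of both tissues. It was at 184 ± 63.8 CPM in the Nr2e3-led and 194 ± 70.4 CPM in the Retnlb-led mucosa cells and at 4.90 ± 0.808 CPM (n = 2) in the Slc51a-led absorptive-like cells. In tumors it was at 1.98 ± 2.56 CPM in the Tgm3-led absorptive-like cells, 34.9 ± 15.9 CPM in the Npy-led tumor epithelial-like cells, 149 ± 58.8 CPM in the Gm45889-led cluster and 408 ± 144 CPM in the Paneth-like cells. Cldn8 differed between the absorptive-like clusters. It was at 12.01 ± 2.38 CPM (n = 2) in the Slc51a-led, 58.6 ± 13.2 CPM in the Aqp8-led and 164 ± 8.03 CPM (n = 2) in the Tgm3-led mucosa cells, and at 112 ± 6.21 CPM (n = 2) in the unnamed Defb45-led mucosa cells. It was at 63.1 ± 31.9 and 61.6 ± 17.0 CPM (n = 10) in the Tgm3-led and Defb45-led tumor cells, and at 2.69 ± 0.638 CPM in the tumor epithelial-like cells. Cldn23 was at 72.7 ± 14.3 CPM (n = 2) in the Slc51a-led and 90.1 ± 19.0 CPM in the Aqp8-led mucosa cells and 112 ± 34.8 CPM in the Tgm3-led tumor cells. It was at 8.13 ± 1.43 CPM in the Hist1h1b-led cycling-like mucosa cells and 9.18 ± 2.96 CPM in the Hist1h3c-led cycling-like tumor cells. All cycling-like mucosa cells, the Wfdc12-led ones included, held it at 9.72 ± 0.941 CPM.

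Tjp1 was between 18.4 ± 2.25 CPM, in the Nr2e3-led cells, and 69.7 ± 4.37 CPM (n = 2), in the Tgm3-led cells, in the mucosa. In tumors it ran from 27.9 ± 5.83 CPM (n = 7) in the Ccn3-led to 120 ± 29.0 CPM in the Sprr2b-led cells. Cldn3, Cldn7 and Ocln were found in every cluster. Over the means of the clusters used, Cldn3 lay between 299.6 and 1489 CPM, Cldn7 between 685 and 3791 CPM and Ocln between 18.0 and 46.9 CPM. The clusters used leave out those of low depth that were led more by markers of other cells.

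**Figure D4:**
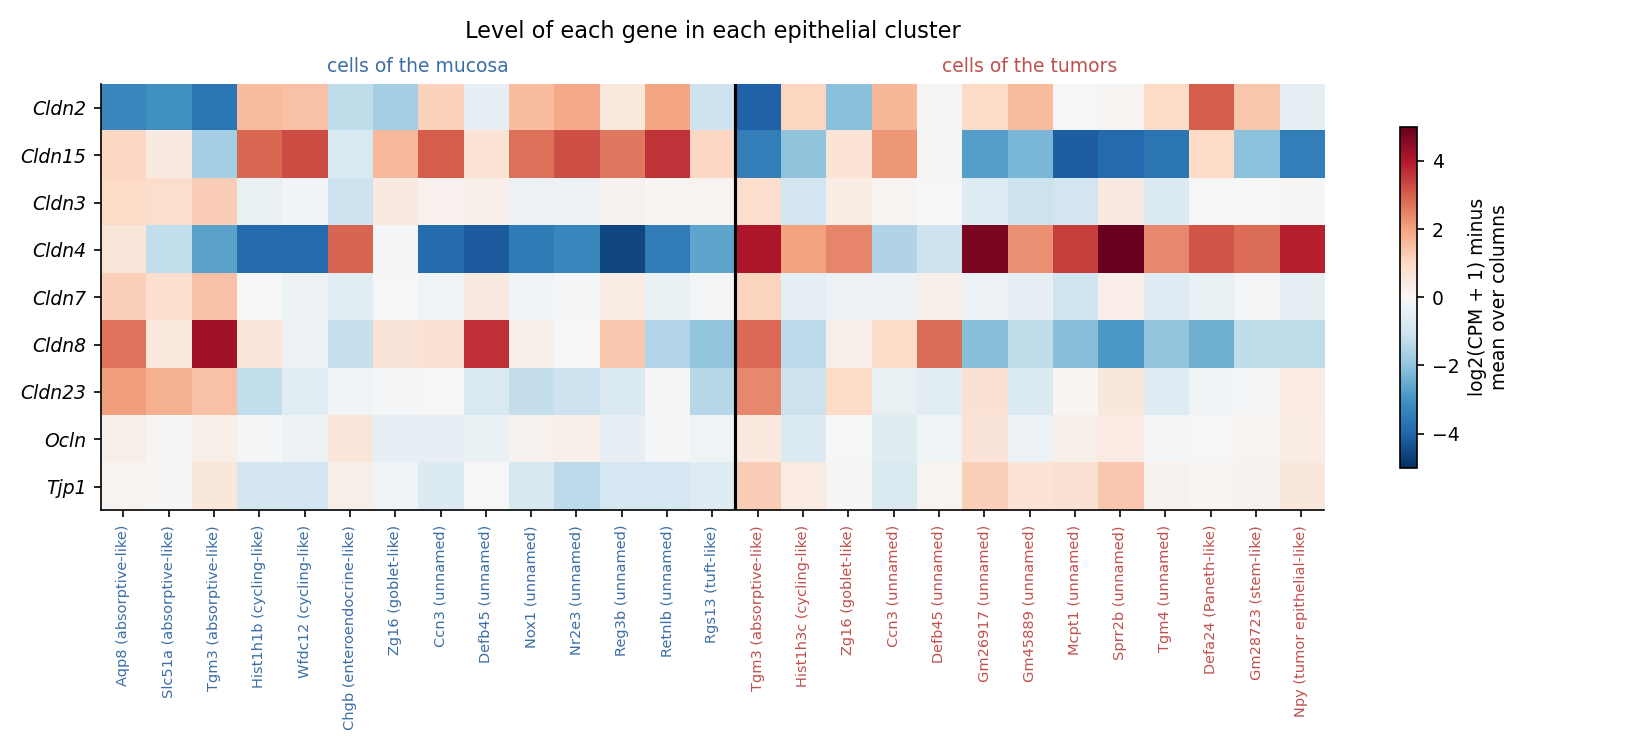
Mean level of 9 genes in each epithelial cluster, as log2(CPM + 1) minus the mean over the columns, with mucosa cells left of the black line and tumor cells right of it. Red is above and blue below a gene's own mean, so rows are not compared in level. Cldn4 is red and Cldn15 blue in most tumor columns, and Cldn8 and Cldn23 are red in the Tgm3-led column of either tissue.

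The share of epithelial cells with at least 1 UMI was read after thinning each cell to 2000 UMIs, which left out 450 of 14861 mucosa and 816 of 17183 tumor cells. Of the immune cells it left out 3123 of 6590 in mucosa and 11068 of 67355 in tumors, so their thinned shares cover the deeper cells only. Cldn4 was found in 1.58% ± 0.741 (SD, n = 3) of mucosa cells and 32.3% ± 5.02 (SD, n = 10) of tumor cells, and in 0.0608% and 0.361% of immune cells of mucosa and tumors. Before thinning the epithelial shares were 3.85% and 62.1%. Cldn15 was found in 24.2% ± 4.98 of mucosa and 1.66% ± 0.941 of tumor epithelial cells (66.4% and 8.24% before thinning) and in 1.02% and 0.347% of immune cells. Tjp1 was found in 6.37% ± 0.821 and 13.7% ± 0.985 of epithelial cells (33.6% and 54.1% before thinning) and in 0.267% and 0.227% of immune cells. Cldn2 was found in 16.3% ± 2.62 and 14.7% ± 3.72 (51.4% and 42.1% before thinning), against 1.04% and 0.188% of immune cells. The median depth was 12454 and 11970 UMIs in epithelial cells and 2090 and 3515 UMIs in immune cells of mucosa and tumors. The shares of Cldn4, Cldn15 and Tjp1 did not overlap between the tissues, while those of Cldn2 did.

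The genes most like each member over 159 sums of a cluster and library (23 clusters, Spearman correlation of log2 values, as a description) were looked up among genes of at least 20 CPM. Sums from 1 library share its depth and base composition, sums of a cluster share its genes, and the sums mix both tissues, so that tissue differences enter every value. For Cldn15 these were Aldh1b1 (correlation 0.91) and Muc3a (0.84), for Cldn4 Zfand5 (0.91) and Smox (0.91), and for Tjp1 Bcl2l1 (0.89) and Fat1 (0.89). Cldn2 was most like Slc12a2 (0.78) and Cited4 (0.73), Cldn3 like Vamp8 (0.87) and Prr13 (0.85), Cldn7 like Paqr5 (0.83) and Psmb10 (0.83), and Cldn8 like Thbs4 (0.79) and Itih5 (0.77). Cldn23 was most like Sqstm1 (0.79) and Rhoc (0.77), and Ocln like Btg1 (0.66) and Sqstm1 (0.64). For Cldn1, at its few UMIs, the values were 0.40 (Rbpms) and 0.38 (Plscr3). Between members, the correlation was 0.81 for Cldn4 and Tjp1, -0.79 for Tjp1 and Cldn15 and -0.75 for Cldn4 and Cldn15.

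Other junction genes were counted from lists. Of 33 further tight junction genes in the files, 32 were tested in the epithelial sums. Of these 16 were higher in tumors, 5 were lower and 11 were not called, where 33.7% of all genes were higher and 30.1% lower. Among genes with a mean of at least 5 CPM in 1 group, the higher ones with the largest change were Amotl2 (1.33 to 6.53 CPM, log2 fold change 2.04), Arhgef2 (10.8 to 48.9 CPM, 1.93), Amotl1 (3.31 to 12.1 CPM, 1.61) and Sympk (20.0 to 45.8 CPM, 0.93). The lower ones were led by Ildr1, an angulin of tricellular junctions (87.7 to 28.0 CPM, -1.90), and Prkcz, the atypical protein kinase C of cell polarity (40.2 to 19.4 CPM, -1.30), followed by Ybx3 (-0.70) and Igsf5 (-0.63). Among 18 adherens junction and desmosome genes 10 were higher and 2 were lower, beside the same shares over all genes. Ppl, a plaque protein of desmosomes, rose from 2.96 to 15.5 CPM (log2 fold change 2.13), Vcl by 0.94, Ctnnb1, the gene of beta-catenin, by 0.89 and Jup by 0.83 on the log2 scale. Nectin1 (-1.83) and Nectin3 (-1.31), adhesion molecules, were lower. The edgeR adjusted p-values of these genes ran up to 0.0032.

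Of 22 other claudin genes, 7 had enough UMIs to be tested, of which 3 were higher (Cldn5, Cldn6 and Cldn18, each under 1.5 CPM on average in tumors) and 2 were lower, beside 33.7% and 30.1% of all genes. The lower ones were Cldn14, from 18.3 to 9.62 CPM (log2 fold change -1.18, edgeR adjusted p = 0.041), and the claudin domain gene Cldnd1, from 36.4 to 27.9 CPM (-0.64, edgeR adjusted p = 6.68e-04). Beside these lists, 13 of 15 dissociation and stress genes were higher in tumors (33.7% of all genes), and their sum was 1476 to 1751 CPM in mucosa and 2791 to 6186 CPM in tumors. Of 10 absorptive markers 7 were lower, and of 8 goblet markers 7 were lower, beside 30.1% of all genes. The part of stress and of cell makeup in the junction genes was not tested.

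Among tumors alone, the 3 mice were compared with each other. By edgeR 0 of 9 members were called (0.447% of 15451 genes), and 1, Tjp1, was under an unadjusted p of 0.05 (adjusted p = 0.19). The tumors of mouse C held Tjp1 at 57.2 to 65.7 CPM and those of mouse A at 70.1 to 76.5 CPM, while the 2 tumors of mouse B were at 80.8 and 65.6 CPM. Without tumor replicate 9 or 10, 1 tumor is left for mouse B, its spread is taken from the tumors of the other mice, and the genes called rose from 69 to 1638 of 16160 or 800 of 16153. Of the 9 members 1, Cldn7, was called without tumor replicate 9, near the share over all genes in that fit, and 0 were without tumor replicate 10.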

How the data were processed

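Single-cell RNA-seq was made from dissociated colon tumors (10 libraries) and adjacent mucosa (3 libraries). The authors deposited raw UMI counts per gene and barcode for each library, made with Cell Ranger 6.0.0 and the mm10 build according to the submitters' processing notes, with no normalization. Library totals were 57221300 to 116133079 UMIs, and intervals cover counting error only.

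Of 137591 barcodes, 118892 were kept, with minimums of 500 UMIs and 200 detected genes and a mitochondrial share below 25%, and 10397 doublets were removed by similarity to simulated doublets, at a rate of 0.8% per 1000 barcodes. Cells were clustered with scanpy 1.11.5 (2000 variable genes without the junction genes, 30 components, 20 neighbors, Leiden resolution 1) and named from marker genes, with naming thresholds set after the cluster profiles were seen. Clusters were left out of the epithelium classes if they were of low depth and also led by more markers of other cells than epithelial markers. The Mcpt1-led cluster (819 tumor cells and 0 mucosa cells), with Mcpt2 and Cpa3 also among its leading genes, was not left out. It is part of the epithelial sums of tumors. UMIs were summed per library and class (at least 20 cells) and tested with edgeR 4.0.16 in R 4.3.3 (quasi-likelihood test, TMM factors, filterByExpr, Benjamini-Hochberg adjustment over all genes tested). The standard error was the log2 fold change over the square root of F. The script was tested on simulated data. DESeq2 1.42.0 was an alternative. The members and gene lists were chosen with earlier results of these data known. Besides the members, up to 4 called genes in each direction per list were named by log2 fold change, given a mean of at least 5 CPM in 1 group, and the 2 genes most like each member.

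Libraries were taken as samples; tumors of 1 mouse share an animal, so p-values measure the spread between libraries. The animal codes of the titles pair tumors with mucosa: deviations from the group means correlated with r = 0.197, 0.108 and 0.226 across 15814 genes in mice A, B and C. The fit with the mouse as a replicate block was an alternative, as were other size factors, no filter, doublets kept, a 10% mitochondrial limit and leaving out each library. Fits within 3 clusters and with library totals only were added after the data were seen.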

Additional observations from a re-analysis of the deposited data

Results flagged for a closer look

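Of 36 groups of tumors examined for a sample far from the others, 5 held one. The rule marks about 1 in 20 groups by chance only where groups are independent and values normally distributed. The epithelial sums contain the absorptive-like and cycling-like cells, so these groups share cells and the count cannot be set against that rate. Cldn15 was far higher in tumor replicate 6 than in the other tumors in the sums of all epithelial cells (32.0 CPM), of absorptive-like cells (9.39 CPM) and of cycling-like cells (47.9 CPM). In clusters made of tumor cells this tumor also held the highest Cldn15, with 113 CPM in the Paneth-like and 20.2 CPM in the Gm45889-led cells. Cldn7 reached 1790 CPM in the epithelial cells of tumor replicate 10, and Cldn2 reached 8.76 CPM in the absorptive-like cells of tumor replicate 2.

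The edgeR class by tissue term, the tissue difference in absorptive-like against goblet-like cells, was called for 2 members. It was -3.30 on the log2 scale for Cldn15, called in all 13 alternatives, and -0.88 for Cldn23, called in 4 of 13 (adjusted p up to 0.22). Most absorptive-like cells were in the Slc51a-led cluster in mucosa and in the Tgm3-led cluster in tumors, and the part of this in the term was not tested.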

How the results depend on the processing

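The calls of Cldn4, Tjp1 and Cldn15 in the epithelial, absorptive-like and cycling-like sums held under every alternative run. These alternatives do not match the clusters between tissues. In the main edgeR fits of goblet-like cells and of the Defb45-led and Ccn3-led clusters, neither Tjp1 nor Cldn15 was called. In the Tgm3-led cluster Tjp1 was not called and Cldn15 was under the count filter. With library totals only, 3096 genes and 1 member were lower in the epithelial sums, Ocln turned to 0.14, and 510 genes were lower in goblet-like cells, where Cldn2 and Cldn3 turned to -0.13 and -0.089. That scaling moved the share of calls that were higher from 52.8% to 69.0% (epithelial), 64.9% to 31.5% (goblet-like), 52.2% to 62.8% (cycling-like), 45.7% to 70.4% (Tgm3-led), 46.1% to 57.7% (Defb45-led) and 79.8% to 63.1% (Ccn3-led), and median size factors moved it from 63.9% to 52.6% for the class by tissue term. With the 10% mitochondrial limit, Ocln was 0.018, goblet-like cells had 33 genes higher, 17 lower and 0 members higher, the class by tissue term had 139 genes and 1 member lower, and the Tgm3-led mucosa cells held Cldn8 at 172 and Tjp1 at 59.7 CPM. With doublets kept, 2 of 9 members were lower in absorptive-like cells, beside 1567 of 9174 genes, and Cldn3 there was 0.015. Goblet-like cells then had 512 genes higher and 280 lower, with Cldn2 at -0.38. With no filter, goblet-like cells had 676 genes higher, 690 lower and 1 member (Cldn15) lower, Cldn2 at -0.14 and Cldn3 at -0.12. The class by tissue term then had 1 member higher and 1 lower, beside 615 and 353 of 18335 genes, with Cldn3 at 0.012. DESeq2 gave Cldn2 -0.10 in goblet-like cells. Thinning to 1000 UMIs gave shares of 9.15% and 8.11% for Cldn2 and 3.33% and 7.58% for Tjp1 in mucosa and tumors, 21.1% for Cldn4 in tumors and 12.9% for Cldn15 in mucosa. The cause was not tested.

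With the mouse as a replicate block, goblet-like cells had 199 genes higher, 82 lower and 1 member higher. Leaving out 1 library at a time gave 2 to 5 members lower in the epithelial sums, beside 4036 to 4867 genes, and 3 to 6 in cycling-like cells, beside 2244 to 2906 genes. In goblet-like cells it gave 43 to 357 genes higher, 16 to 191 lower and 0 to 2 members higher. The class by tissue term had 216 to 566 genes higher, 100 to 424 lower, 0 to 1 members higher and 1 to 2 lower. Between mice, 0 to 1638 genes and 0 to 1 members were called, the most without tumor replicate 9, then 800 without tumor replicate 10. Log2 values near 0 changed sign: Cldn3 ran from -0.16 to 0.099 in absorptive-like cells, from -0.020 to 0.21 in goblet-like cells and from -0.060 to 0.052 in the class by tissue term, Cldn7 from -0.22 to 0.079 in goblet-like cells, and Cldn8 from -0.067 to 0.97 in the Ccn3-led cluster. Few UMIs lie behind Cldn1 in the epithelium and Cldn4 in most mucosa clusters, and sums were small for the tumors' goblet-like cells.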
